A study of Mus musculus with 6 samples.

Results

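The cytosolic ribosomal protein genes of mouse 3T3 cells are described here as 90 rows of a table of 54532 genes. They were chosen by name alone: symbols made of Rpl or Rps and a number, with an optional letter, together with Rpsa, Rplp0, Rplp1 and Rplp2, leaving out the S6 kinases and every symbol that holds -ps. The rule found 46 genes of the large subunit (Rpl), 33 of the small subunit (Rps) and 11 paralogs whose symbol carries an l after the number, such as Rpl7l1 and Rps27l, which were kept apart. The current mouse annotation lists 84 of the 90 as protein coding and 6 as processed pseudogenes (Rpl6l, Rpl32l, Rps12l1, Rps4l, Rps3a2 and Rps3a3), so a few rows that the name rule takes are not working ribosomal protein genes.

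The study compared cultures of the 3T3 line, which the labels call adipocytes of wild-type genotype, given the solvent DMSO or 200 µM baicalin, a flavone glucuronide from the skullcap root. There were 3 libraries in each group. The sources used here do not give the length of the treatment, the way in which the cells were made into adipocytes, or whether the 3 libraries of a group came from separate cultures. A p-value therefore reflects how far these libraries spread, which may be technical. All 6 libraries come from a single cell line, and both groups share its genotype.

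A cytosolic ribosome holds 1 copy of nearly every ribosomal protein, and the large and the small subunit are assembled separately in the nucleolus before export. Cells therefore tend to make these proteins in step. Most of their mRNAs begin with a C followed by a run of pyrimidines, the 5′ TOP motif, through which mTORC1 and LARP1 set how well the mRNAs are translated and how long they are kept. Ribosomal proteins made in excess are degraded, and free RPL5 and RPL11 bind MDM2. In fat cell precursors, as in other cells, ribosome content is tied to growth and to the supply of amino acids and insulin.

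The 6 libraries held from 16730594 to 18326874 counted reads, and at this depth 83 of the 90 members passed the filter on low counts. The labelled cell type was checked on its markers. Of 9 fat cell markers Lep had 2 reads and Slc2a4 had 6 over all libraries. Adipoq, the fat cell hormone gene, stood at 1.66 ± 0.679 CPM (reads scaled to library size) in DMSO (SD, n = 3), against 1443 ± 79.6 CPM for the lipoprotein lipase gene Lpl. The summed level of the 9 fat cell markers was 1804 to 1978 CPM in DMSO and 803 to 817 CPM in baicalin, with 6 of the 7 tested markers lower, and that of 4 fibroblast markers was 11064 to 11516 CPM and 7846 to 8056 CPM, with Col1a1, Col1a2 and Pdgfrb lower but Thy1 higher (115 ± 5.01 to 245 ± 4.18 CPM, log2 1.09). Over all tested genes 33.6% were called higher and 34.1% lower. Macrophage and endothelial markers were at or near 0 in every library. The fat cell and fibroblast marker levels moved with the treatment beside the ribosomal protein genes, and their part in the results below was not tested.

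Ribosomal protein mRNAs made up more of the counted reads in baicalin than in DMSO. The 79 Rpl and Rps genes took 4.10%, 3.90% and 4.09% of the reads in DMSO against 5.10%, 5.05% and 4.98% in baicalin. The groups did not overlap, and the share rose from 4.03 ± 0.110% to 5.04 ± 0.0631% (SD, n = 3). The large subunit went from 2.45 ± 0.0751% to 3.08 ± 0.0360% and the small subunit from 1.58 ± 0.0353% to 1.96 ± 0.0314%, a ratio of 1.26 and 1.24. As these are bulk RNA libraries, fewer cells of a type and less RNA per cell cannot be told apart.

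Gene by gene, with edgeR's quasi-likelihood test and Benjamini-Hochberg adjustment over all 13728 tested genes, a gene is called here at an adjusted p under 0.05. Of the 46 Rpl genes 38 were higher in baicalin, none was lower and 8 were not called. Of the 33 Rps genes 27 were higher, 1 was lower and 5 were not called. Over all tested genes 33.6% were called higher and 34.1% lower, so a call alone is common in these libraries, whereas 82.6% of the tested Rpl genes and 81.8% of the Rps genes were called in a single direction. All 3 baicalin libraries lay above all 3 DMSO libraries for 39 Rpl and 28 Rps genes, where 35.1% of all tested genes did so.

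The median log2 fold change was 0.40 over the Rpl genes and 0.41 over the Rps genes, a fold of 1.32 and 1.33, against 0.00 over all tested genes. The medians of the subunits were thus close together. Within each subunit the spread was wider, with quartiles at 0.27 and 0.56 for the Rpl genes and at 0.31 and 0.57 for the Rps genes. The plot of fold changes by subunit gives genes with their standard errors, and shows wide errors for Rpl17, Rps18, Rps2 and Rps27, whose reads are described further on together with those of their copies, and for Rpl29 and Rpl24.

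**Figure D1:**
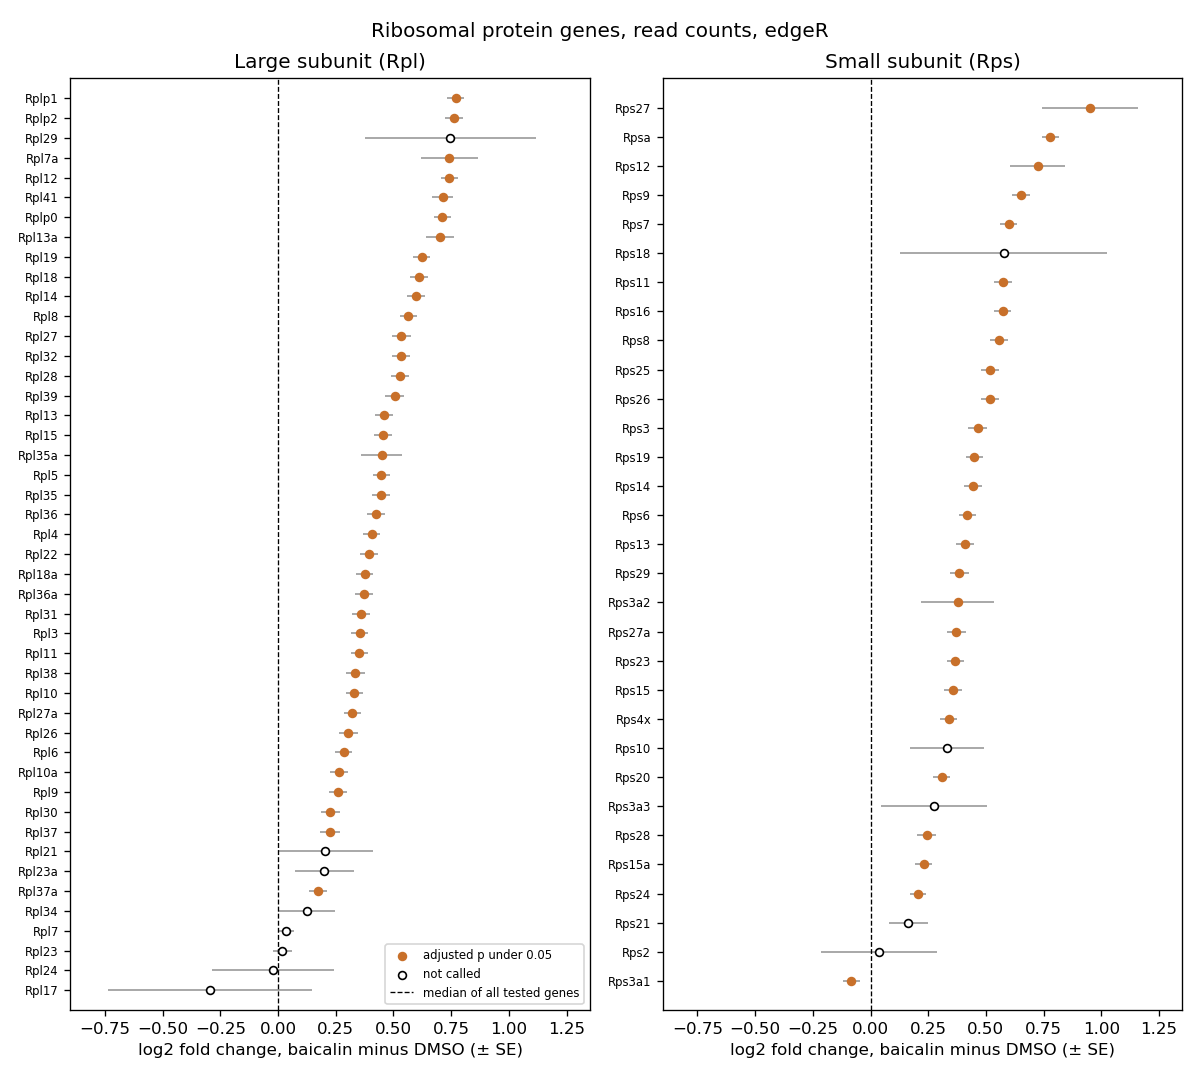
Log2 fold change (baicalin minus DMSO, x axis) of the Rpl genes (left) and Rps genes (right) reported by name, each with its standard error, from edgeR on 3 libraries a group, with filled points for an adjusted p under 0.05 and open points for genes not called. Nearly all points lie to the right of the dashed line, the median of all tested genes at 0.00, and Rps3a1 is the one filled point to the left of it.

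A short pyrimidine run was searched for near the start sites. Promoter sequences from RefSeq on GRCm38.p6, which reach from 250 bases before to 50 bases after the start, were at hand for 57 of the 79 Rpl and Rps genes, in 67 promoters. The letters CTTTC on the gene's own strand, from 10 bases before the start to 50 after it, occurred in 28 of the 67 (41.8%), and in 7.30% of all 32851 promoters. An ETS-type core, CCGGAAG or its reverse complement CTTCCGG, occurred on either strand of the 300 bases in 37.3% of the members' promoters and in 8.86% of all. A match of letters describes the window and no more. Sequences for printing were sought only among genes chosen by the rule in the section on processing, where a promoter was at hand. Of these 7 hold CTTTC there, and genes added to the report later were not looked at for printing. Up to 30 bases around the run are printed 5′ to 3′ on the gene's strand, with the 5 letters in capitals, to show it in its place. The run is not in itself a TOP motif, which begins at the first base of the mRNA.
Rpl12 (chr2:32961712-32961741, plus strand): gtcttttcggCTTTCggctcggaggaggca
Rpl7a (chr2:26910792-26910821, plus strand): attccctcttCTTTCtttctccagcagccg
Rplp2 (chr7:141447641-141447670, plus strand): cagcgtcttcCTTTCgccgccggacgccgc
Rps27 (chr3:90213637-90213666, minus strand): aggatttccgCTTTCgctcctttccggcgg
Rpsa (chr9:120127778-120127807, plus strand): gccgcccgtcCTTTCgcgctacccggggac
Rpl36a (chrX:134585678-134585703, plus strand): tagcctctctCTTTCcgagctgctag
Rpl39 (chrX:37085173-37085195, minus strand): cggtcccggcCTTTCtcttctcc
The run stood within 11 bases of the start in Rpl12, Rpl7a, Rplp2 and Rps27, and further downstream of it in Rpsa, Rpl36a and Rpl39.

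The genes of the ribosomal stalk showed close to the same rise, at the upper end of the large subunit. The stalk is the flexible arm that recruits and activates the elongation factors, built from Rplp0 and dimers of Rplp1 and Rplp2 on a base that includes Rpl12. Rplp0 drew 38061, 33488 and 37920 reads in DMSO against 57159, 57040 and 55962 in baicalin. The lowest baicalin library was far above the highest DMSO library. The rise was 1.64-fold (log2 0.71 ± 0.04 SE, adjusted p = 9.83e-23). Rplp1 drew 21146, 18883 and 21709 reads in DMSO against 32581, 34764 and 32571 in baicalin, again without overlap, and rose by 0.77 ± 0.04 on the log2 scale, from 1138 ± 55.1 to 1941 ± 37.7 CPM. Rplp2 went from 424 ± 13.4 to 720.2 ± 21.9 CPM (log2 0.76) and Rpl12 from 750.1 ± 19.1 to 1254 ± 34.3 CPM (log2 0.74). The 4 genes thus lay between 0.71 and 0.77, with a median of 0.75, and each was called. Copies are here other genes that hold at least 50% of the 31-base words of a member's coding sequence. The own rows of Rplp0 and Rplp1 held 99.8% and 99.1% of the reads of the gene and its copies in DMSO. Those of Rplp2 and Rpl12 held 89.6% and 85.1%. The only copy of Rplp2 is Wdr89, a protein-coding gene that shares 80.3% of these words.

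Other parts of the large subunit rose less. Rpl5 and Rpl11, which carry the 5S RNA into the subunit and can bind MDM2, were both higher. Rpl5 drew 14343, 13373 and 14224 reads in DMSO against 17804, 18639 and 17888 in baicalin (log2 0.45 ± 0.04, adjusted p = 6.11e-16), and Rpl11 had 8375, 7388 and 8288 against 9769, 9812 and 9550 (log2 0.35 ± 0.04). Neither gene's groups overlapped. The 3 genes whose proteins reach towards the peptidyl transferase centre were higher as well, Rpl8 by 0.56, Rpl3 by 0.35 and Rpl10 by 0.33. Of 8 genes at the exit tunnel and its rim 6 were higher (75%, against 33.6% of all tested genes), with a median of 0.38. Those not called were Rpl17 and Rpl23a. Rpl39, a small protein inside the tunnel, drew 9246, 7840 and 8366 reads in DMSO against 11702, 11091 and 11448 in baicalin (log2 0.50 ± 0.04).

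Rpl41 and Rpl7a also belonged to the largest rises of the large subunit. Rpl41, which encodes a very short and strongly basic peptide at the subunit interface, drew 9915, 8961 and 10248 reads in DMSO against 15170, 14250 and 15879 in baicalin (log2 0.71 ± 0.05). Rpl7a had 1427, 1312 and 1549 against 2481, 2391 and 1934 reads (log2 0.74 ± 0.12, adjusted p = 0.00423). Its groups did not overlap, but its baicalin libraries differed by more than those of Rpl41. Its 16 copies carried 8224 reads beside 11094 on its own row, and its summed rise was 0.57. Rpl36a (256.9 ± 2.77 to 333 ± 14.9 CPM, log2 0.37) and Rpl22 (332 ± 6.92 to 435 ± 23.3 CPM, log2 0.39) lay close to the median.

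**Figure D2:**
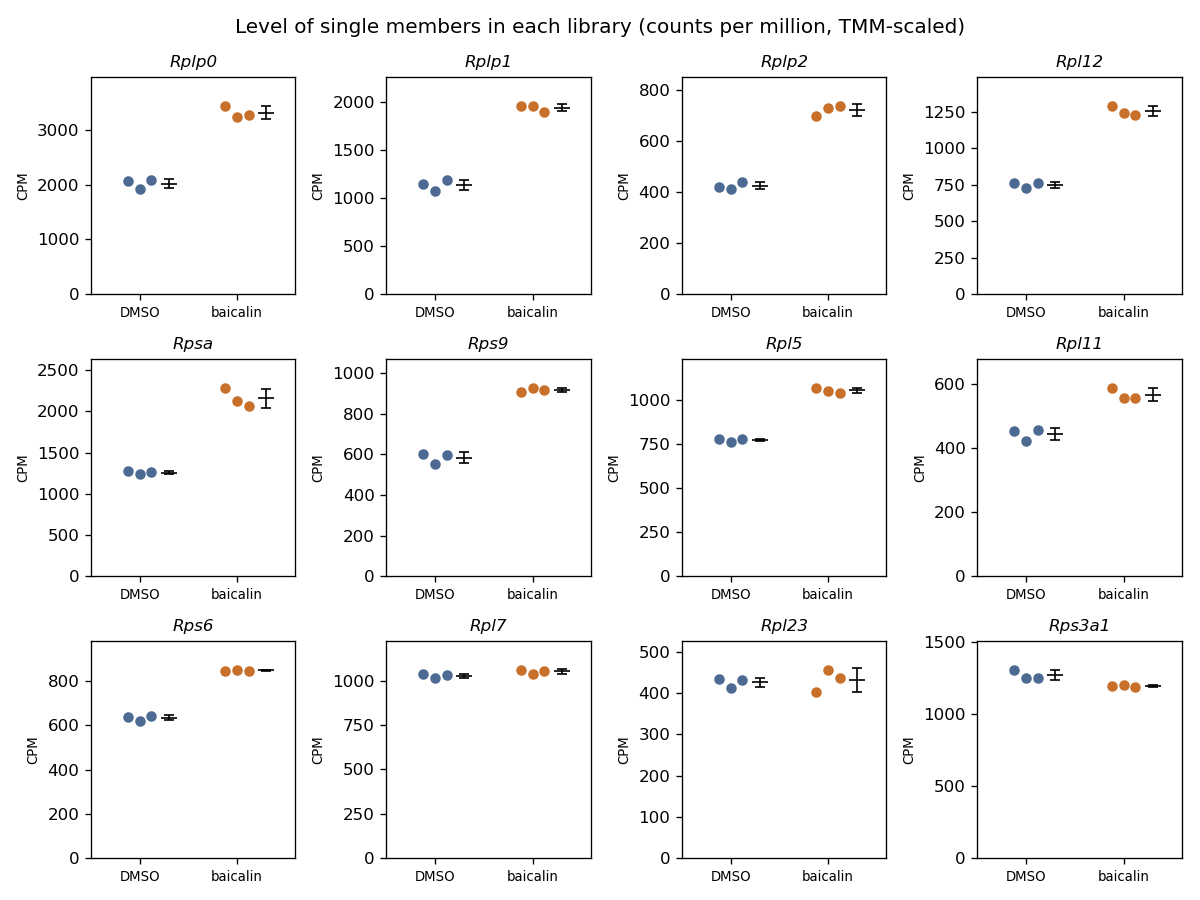
Level of 12 members in each library (points, CPM scaled by TMM factors, y axis from 0), with the mean and SD of the 3 libraries of a group beside them. The stalk genes, Rpsa and Rps9 separate the groups most, Rpl5, Rpl11 and Rps6 less, and Rpl7, Rpl23 and Rps3a1 hardly at all.

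On their own rows, Rpsa had the largest rise of the Rps genes after Rps27, which is described below with its copy. Of the reads of Rpsa and its copies 94.0% lay on its own row in DMSO. It encodes a protein at the mRNA exit side that is also known as the laminin receptor precursor. It drew 23586, 21663 and 22993 reads in DMSO against 38057, 37582 and 35523 in baicalin, with no overlap (1.72-fold, log2 0.78 ± 0.04, adjusted p = 1.62e-24). Rps9 in the body of the subunit had 11071, 9666 and 10930 reads against 15093, 16440 and 15731 (log2 0.65 ± 0.04). Rps6, the substrate of the S6 kinases, went from 635 ± 12.7 to 849 ± 2.81 CPM (log2 0.42 ± 0.04).

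By position, all 9 genes of the body and foot were higher, with a median of 0.42, as were 10 of 12 in the head, also with a median of 0.42. Over all tested genes 33.6% were called higher and 34.1% lower. At the mRNA exit side and platform 5 of 6 were higher and Rps3a1 was lower. At the mRNA entry Rps3 and Rps23 were higher and Rps2 was not called. Rps12, at the beak of the head, drew 4930, 4305 and 5078 reads in DMSO against 6505, 8895 and 7111 in baicalin (log2 0.73 ± 0.12, adjusted p = 0.00538), and rose by 0.66 when its 7 copies were added. The groups of Rps12 did not overlap, although the second baicalin library stood above the other two.

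A few members had small changes while most of the family went up. Rpl7, a core protein of the large subunit, drew 19100, 17751 and 18829 reads in DMSO against 17655, 18381 and 18092 in baicalin. In scaled values this was 1027 ± 10.46 and 1052 ± 12.2 CPM, and the change of 0.03 ± 0.04 was not called (adjusted p = 0.413), although every baicalin library lay slightly above every DMSO library. Rpl23 was at 426 ± 11.2 and 431 ± 28.1 CPM with overlapping groups (log2 0.02 ± 0.04, adjusted p = 0.694). Rps3a1, next to the mRNA exit, drew 24170, 21831 and 22785 reads in DMSO against 19897, 21320 and 20411 in baicalin. It was the only member called lower, at 1269 ± 35.0 and 1197 ± 7.83 CPM (log2 -0.08 ± 0.04, adjusted p = 0.0377). That call was lost without any single library other than the second DMSO library, with an adjusted p from 0.0513 to 0.271, and its size is a fold of 1.06. Its own row held 99.2% of its reads and those of its copies in DMSO. Rps21 (347 ± 26.1 and 388 ± 36.0 CPM) and Rpl23a (287 ± 21.2 and 329.9 ± 44.9 CPM) were not called and their libraries spread more widely.

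Levels per length order the members differently from raw reads. On the authors' FPKM values, which divide by the length of the gene model, Rplp1 stood highest in DMSO at 2299 ± 110.2, followed by Rps3a1 at 1309 ± 38.96 and Rplp0 at 1226 ± 54.7, the last pair within their spread of each other. In baicalin Rplp1 was at 3959 ± 82.9 and Rplp0 at 2029 ± 82.6, above Rpl36 at 1287 ± 37.4 and Rps3a1 at 1247 ± 9.08. Rpl36 had been at 949.5 ± 28.3 in DMSO, below Rps3a1, and in baicalin the gap between them was about as large as their spread. This order takes the members' own rows only and leaves out the copies described next. In DMSO the pseudogene Rpl34-ps1 stood at 1566 ± 54.6, where the Rpl34 row had 3.49 ± 0.443.

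Ribosomal protein genes have many processed copies in the mouse genome, and for several members most reads lie on such a copy. A copy was taken as any other gene whose transcripts hold at least 50% of the 31-base words of the member's coding sequence. For 10 protein-coding members the copies carry more reads than the member's own row. Of these 9 were tested and 1, Rpl35a, was called, and the other 8 are most of the 13 Rpl and Rps genes not called. Rps2 is the clearest case. Its own row drew 38, 42 and 35 reads in DMSO against 38, 35 and 39 in baicalin, whereas the pseudogene Rps2-ps13 on the X chromosome had 14127, 13221 and 14414 against 20564, 24377 and 21717. The own row held 0.271 ± 0.0370% and 0.166 ± 0.0217% of the reads of the whole family of copies. The log2 change of Rps2 was 0.04 ± 0.25 on its own row, with overlapping groups and an adjusted p of 0.909 from edgeR. For the sum it was 0.75 ± 0.04 (adjusted p = 2.08e-24), close to the values of the stalk genes and Rpsa.

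The coding sequences of Rps2 and Rps2-ps13 differ at 7 of 879 bases. Their first 90 coding bases, from GENCODE M21 transcripts on GRCm38, are printed with the pseudogene's differing bases in capitals, to show how little tells them apart.
Rps2 (chr17:24718116-24721929, plus strand): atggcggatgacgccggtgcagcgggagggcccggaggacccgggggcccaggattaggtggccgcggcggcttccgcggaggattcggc
Rps2-ps13 (chrX:52898588-52899469, plus strand): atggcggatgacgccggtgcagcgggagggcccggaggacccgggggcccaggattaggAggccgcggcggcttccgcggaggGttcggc
Rpl34, Rps10 and Rps18 had the same pattern. Rpl34 had 1012 reads in all and Rpl34-ps1 67671, with 2 differing bases, and the change went from 0.12 to 0.42 when summed. Rps10 had 551 reads and Rps10-ps2 30080, with 5 differing bases, and went from 0.33 to 0.49. Rps18 had 3256 reads and Gm11361, listed as protein coding, 33021, with 3 differing bases. Its own row ranged from 208 to 621 reads in DMSO and from 538 to 743 in baicalin, and the sum rose by 0.59 ± 0.04. Exons of Rps18 also overlap those of Vps52 on the opposite strand over 156 bases, and as the strand setting of the counting is not given, reads of these genes cannot be told apart there.

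Reads of Rps27 and of its copy moved against each other. Rps27, a zinc-finger protein of the small subunit, has the largest fold change of all members on its own row, and its retrotransposed copy Rps27rt has an identical coding sequence over all 252 bases. The first 90 coding bases of both and of the paralog Rps27l follow, with the bases of Rps27l that differ in capitals.
Rps27 (chr3:90212522-90213651, minus strand): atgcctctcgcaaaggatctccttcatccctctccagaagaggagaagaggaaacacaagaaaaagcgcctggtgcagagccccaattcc
Rps27rt (chr9:114982366-114982739, minus strand): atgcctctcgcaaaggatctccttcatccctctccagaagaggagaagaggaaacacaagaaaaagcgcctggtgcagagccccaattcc
Rps27l (chr9:66946086-66949516, plus strand): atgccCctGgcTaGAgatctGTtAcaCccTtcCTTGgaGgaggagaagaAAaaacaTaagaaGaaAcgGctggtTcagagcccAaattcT
Rps27 drew 3488, 3843 and 4531 reads in DMSO against 8431, 7609 and 5703 in baicalin (log2 0.95 ± 0.21, adjusted p = 0.0151). Rps27rt drew 4797, 3576 and 3104 in DMSO against 816, 1213 and 2665 in baicalin, and its change was not called (edgeR, log2 -1.22 ± 0.50, adjusted p = 0.0978). In both groups the library with the most reads on one row had the fewest on the other, and neither gene's groups overlapped. Their sum was 8285, 7419 and 7635 reads in DMSO against 9247, 8822 and 8368 in baicalin, and the change of Rps27 with its copies was 0.26 ± 0.04 (edgeR, adjusted p = 6.98e-07). The share of the pair's reads on Rps27 was 51.1 ± 8.64% in DMSO and 81.9 ± 12.1% in baicalin, a difference with p = 0.10 in a two-sided exact permutation test, the smallest p that 3 against 3 allows (0.30 after adjustment over 6 pairs). The share also varied widely between libraries of one group, from 42.1% to 59.3% in DMSO and from 68.2% to 91.2% in baicalin. Leaving out the first or second DMSO library ended the call on the own row, with an adjusted p of 0.052 and 0.0554, at log2 changes of 0.86 and 0.96. Since the coding sequences are identical, reads within them cannot be told apart between these genes, and the 0.95 of the own row and the 0.26 of the sum are given side by side for that reason.

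Rpl17, at the exit tunnel, varied in the same manner within the DMSO group. Its own row drew 5422, 2067 and 2218 reads in DMSO against 2567, 2484 and 2413 in baicalin, so the first DMSO library stood far above the other five. Rpl17-ps10, with 4 differing bases, drew 3078, 5968 and 6596 in DMSO against 7946, 7211 and 7115 in baicalin, so there the first DMSO library was far below. The pair's sum was 8500, 8035 and 8814 reads against 10513, 9695 and 9528, with no overlap. On its own row Rpl17 had a log2 change of -0.30 ± 0.44 that was not called, and with its copies a rise of 0.32 ± 0.04 that was.

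**Figure D3:**
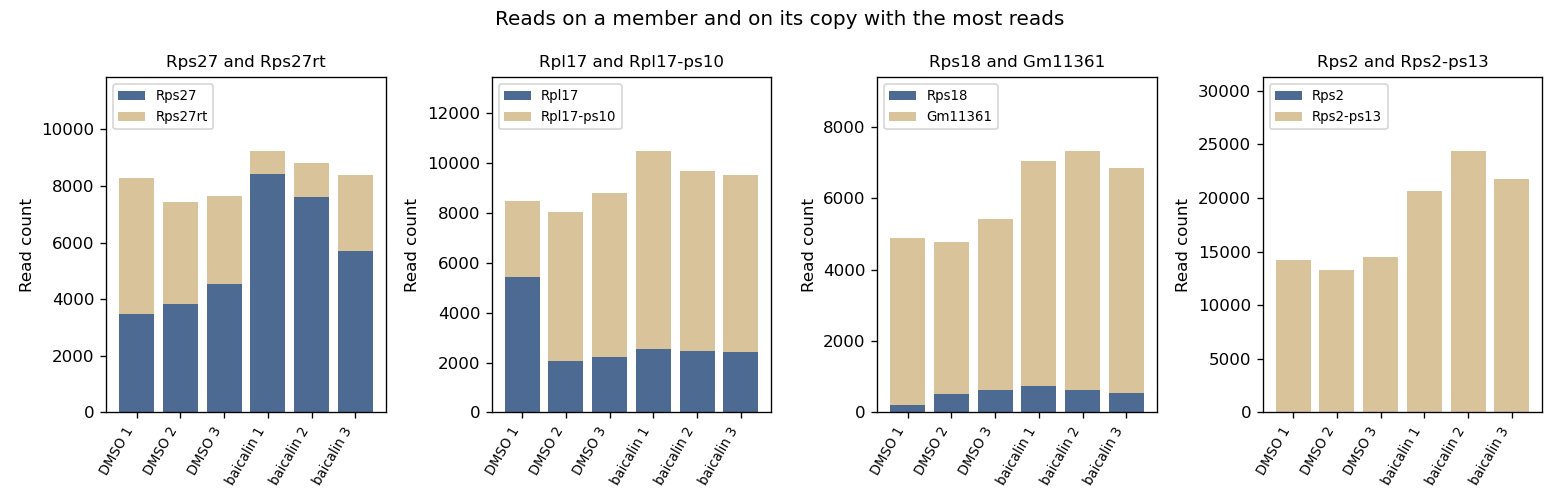
Read counts per library of 4 members (dark) stacked with those of the copy that holds the most reads (light): Rps27 with Rps27rt, Rpl17 with Rpl17-ps10, Rps18 with Gm11361 and Rps2 with Rps2-ps13. The dark part of Rps27 and Rpl17 changes between libraries far more than the height of the whole bar, and Rps2 is too small to see on its own row.

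Summing every protein-coding member with its copies made the family more uniform. The step was chosen after the copies' reads had been seen. The copies include protein-coding genes with other names, whose reads were added in full. For Rpl21, called higher only in the sum, BC004004 gave 8017 of the 13337 reads on copies, beside 373 on the own row. Over 77 Rpl and Rps genes tested in both ways the median went from 0.41 to 0.42, the SD over genes from 0.23 to 0.19, and the range from -0.30 to 0.95 on own rows to -0.07 to 0.79 for the sums. Genes called higher went from 64 to 71, and all 64 were among the 71, where 33.9% of all genes were called higher with sums. None was called lower, and Rps3a1 then had an adjusted p of 0.0733. The 6 sums not called were those of Rpl7, Rpl23, Rpl24, Rpl29, Rps21 and Rps3a1. Members with few reads on copies gave like values on their own rows. Of 48 whose copies held under 10% of their own reads 45 were higher and 1 was lower, with a median of 0.42. Of 9 with no copy at all 8 were higher, with a median of 0.46. Of 26 with at least 50% of their 50-base words found in no other gene 24 were higher, with a median of 0.43. Some of these still had many reads on copies, as the own row of Rpl23 held 73.4% in DMSO. On own rows 33.6% of all tested genes were higher.

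The size of the change depended on whether gene length and base composition were corrected for. Ribosomal protein genes are short, with a median exon length of 1770 bases against 4125 over all tested genes, and their transcripts hold 50.9% GC against 49.4%. With smooth trends on length and GC removed from each library, the median fell to 0.23 for Rpl genes and 0.31 for Rps genes, with 34 and 24 genes higher and 2 and 2 lower, where 33.1% of all genes were called higher and 31.4% lower. Among those called lower were then Rpl23, Rpl37a and Rps3a1, of which Rpl37a had been called higher without the correction. Of the 65 Rpl and Rps genes called higher 58 remained so. Rplp0, Rplp1, Rplp2 and Rpl12 kept rises of 0.44, 0.49, 0.49 and 0.58, and Rpsa one of 0.60. Scaling by library size alone moved the median of all genes by -0.13, and 37.4% of all called genes were then higher, against 49.7% with TMM factors. The Rpl and Rps medians were 0.27 and 0.28 on that scale, with 36 and 25 genes higher (25.3% of all genes) and 2 and 1 lower (42.3%), and lay 0.40 and 0.41 above the median of all genes.

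**Figure D4:**
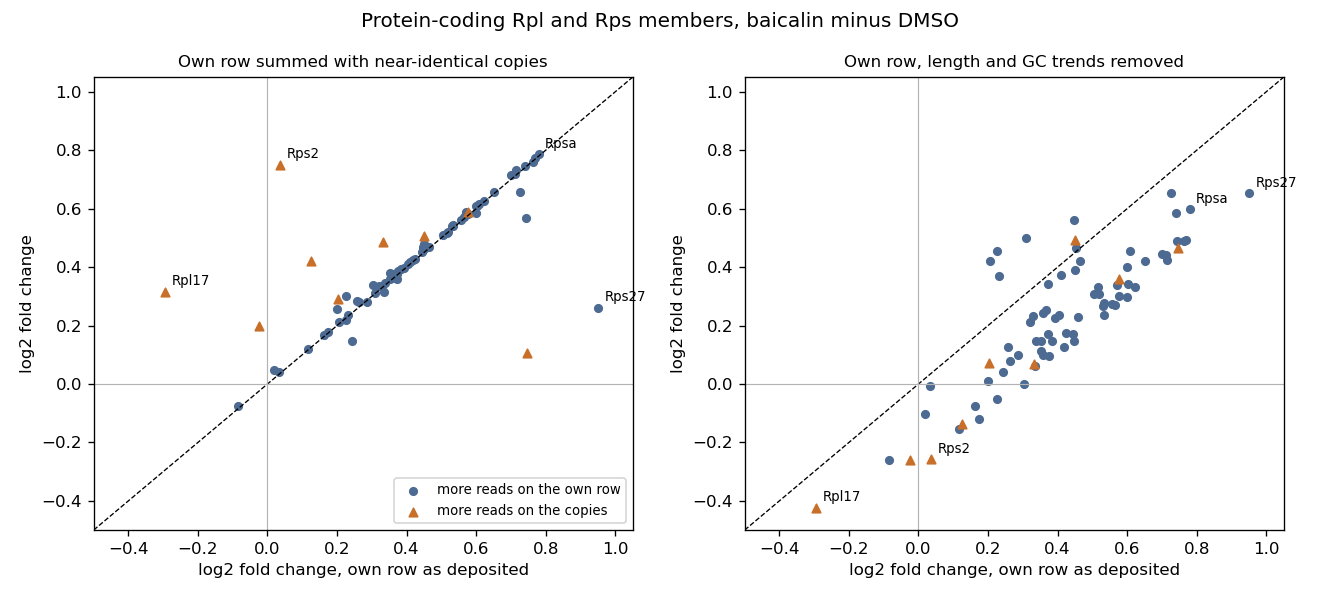
Log2 fold change of 77 protein-coding Rpl and Rps genes on their own row (x axis). It is set against the value summed with copies (left) and the own-row value after removing length and GC trends (right). Triangles mark members whose copies hold more reads. Most points lie on the dashed line of equal values on the left, where Rps2 and Rpl17 move up and Rps27 down, and below it on the right.

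The paralogs with an l in their symbol are genes, retrogenes or pseudogenes, some of which can replace their parent in the ribosome in certain tissues. Here 4 of 11 passed the filter, of which 3 were higher, where 33.6% of all tested genes were, and 1 was not called. Rpl10l, Rpl39l, Rps12l1 and Rps4l had no read in any library. Rpl3l, known from heart and skeletal muscle, had 12 reads in all, Rpl32l 31 and Rpl36al 39. A count of 0 allows up to 0.164 to 0.179 CPM in one library, by 3 counts over library totals without TMM scaling. This covers counting error only. For Rps12l1 it sets no limit, as none of its 50-base words is unique to it. How reads that match several genes were counted was not given.

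Rpl7l1 rose, and its parent was not called. Rpl7l1, which acts in ribosome assembly, drew 1936, 1880 and 1841 reads in DMSO against 2804, 2897 and 2658 in baicalin, without overlap (1.56-fold, log2 0.64 ± 0.04, adjusted p = 2.04e-18). Rpl7 was given above as not called. On FPKM values Rpl7l1 made up 7.25 ± 0.270% of the pair in DMSO and 10.6 ± 0.403% in baicalin. The log2 ratio of paralog to parent rose by 0.60, with p = 0.10 in a two-sided exact permutation test, the smallest possible, and 0.15 after adjustment over the 3 pairs that could be used of the 8 formed. The coding sequences of this pair are only 50.1% identical, and 87.8% of the 50-base words of Rpl7l1 occur in no other gene.

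Rpl22l1 rose by about as much as Rpl22. It drew 764, 667 and 685 reads in DMSO against 829, 900 and 883 in baicalin (log2 0.38 ± 0.06, adjusted p = 2.72e-07), and Rpl22 had 5977, 5857 and 6139 against 7641, 7667 and 7098 (log2 0.39 ± 0.04). The paralog's share of the pair was 14.7 ± 0.931% and 14.6 ± 0.852%, and the ratio changed by -0.01 (exact permutation p = 1). In other mouse cells RPL22 is known to hold back the level of Rpl22l1.

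Rps27l, a p53 target that is 76.2% identical to Rps27 in its coding sequence, drew 1518, 1447 and 1513 reads in DMSO against 1473, 1468 and 1412 in baicalin, with overlapping groups (log2 0.03 ± 0.05, adjusted p = 0.545). Its share of the pair with Rps27 went from 32.7 ± 2.92% to 20.7 ± 3.00%, and the ratio by -0.90. As the Rps27 row rests on the division of reads with Rps27rt, the ratio was also taken against the summed Rps27, and it changed by -0.22. Both ratios had p = 0.10 in the exact permutation test and 0.15 after adjustment. Rpl6l, a processed pseudogene, had 757, 673 and 768 reads against 825, 837 and 902 (log2 0.30 ± 0.06). That value is close to the 0.29 of Rpl6, whose coding words it shares in part, and with length and GC trends removed it was 0.03 and not called.

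**Figure D5:**
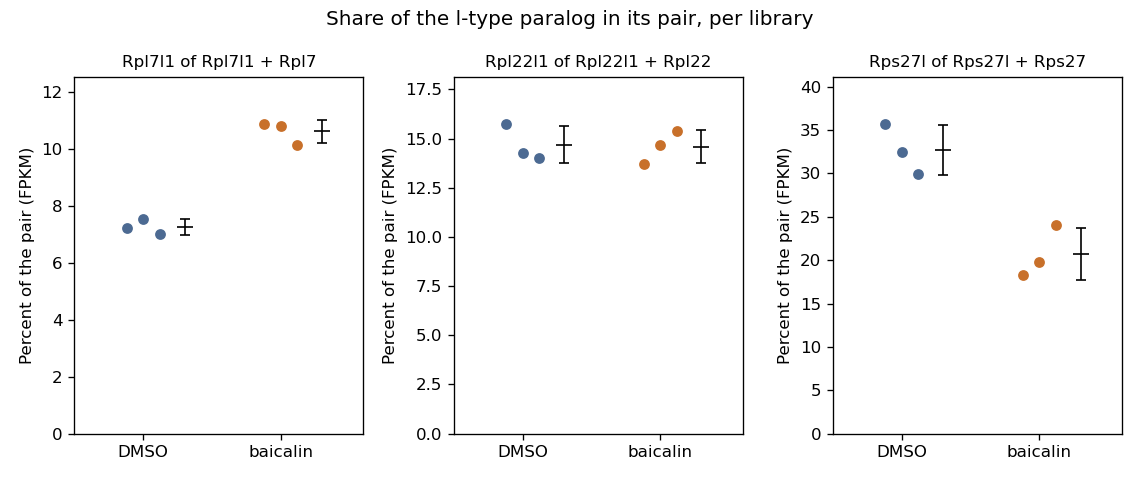
Share of the l-type paralog in the summed FPKM of paralog and parent in each library (points, percent, y axis from 0), with mean and SD beside them. The share of Rpl7l1 is higher in all baicalin libraries, that of Rpl22l1 overlaps, and that of Rps27l is lower, with Rps27 taken on its own row.

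Genes that act with these proteins were followed in lists of their own. Among ribosomal proteins with other names, Rack1, a scaffold on the head of the small subunit, was higher by 0.62 ± 0.04, and Fau, which encodes a ubiquitin-like protein fused to RPS30, by 0.45 ± 0.04.

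Of 17 other mRNAs known to carry the 5′ TOP motif 11 were higher, 4 were lower and 2 were not called, with a median of 0.32. The elongation factor subunits Eef1g, Eef1b2 and Eef1d were the highest, at 0.69, 0.62 and 0.54. Those lower were Naca (-0.31), Hnrnpa1 (-0.19), Eif3e (-0.18) and Npm1 (-0.17), named here because they go the other way. The TOP mRNAs outside the ribosome were thus mixed in direction, at a share of 64.7% higher against 82.3% of the Rpl and Rps genes, a difference that was not tested. Of these TOP mRNAs 23.5% were lower, and over all tested genes 33.6% were higher and 34.1% lower.

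Among 11 regulators of TOP mRNAs 5 were higher (45.5%) and 3 lower (27.3%), with 33.6% and 34.1% over all tested genes. Myc, the transcription factor that drives ribosome synthesis, went from 30.96 ± 3.80 to 77.3 ± 1.81 CPM (log2 1.32 ± 0.06), and Eif4ebp1, which blocks the cap-binding protein until mTORC1 phosphorylates it, from 124 ± 2.46 to 271 ± 5.07 CPM (log2 1.13 ± 0.04). Larp4, which binds poly(A) tails, fell by 0.59 ± 0.05, although with length and GC trends removed its change was 0.03 and not called. Larp1 and Mtor were not called.

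Of 8 chaperones that escort single ribosomal proteins 7 were tested, 6 were higher (85.7%) and none was lower, with 33.6% and 34.1% over all tested genes. Grwd1, which escorts RPL3, rose from 15.9 ± 1.72 to 28.2 ± 2.51 CPM (log2 0.83 ± 0.09), Ltv1, a small-subunit assembly factor, by 0.48 ± 0.10, and Bccip, a partner of RPL23, by 0.41 ± 0.07. Pdcd2 had no read. Of 11 genes of ribosome rescue 6 were higher (54.5%) and 4 lower (36.4%), the lower share being near the 34.1% of all tested genes. Pelo, which splits stalled ribosomes, was at 2.52 ± 0.404 and 4.31 ± 0.812 CPM (log2 0.77 ± 0.21, adjusted p = 0.00109), and Rnf10, a ubiquitin ligase for small-subunit proteins, rose by 0.59 ± 0.04. Map3k20, the kinase ZAK that senses collided ribosomes, fell by 0.56 ± 0.07.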

How the data were processed

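The NEBNext Ultra kit was used on 3 µg of RNA per sample after poly-T selection, as the labels' protocols state. The authors deposited read counts per gene, made with featureCounts 1.5.0-p3 according to the series design text, and FPKM values computed from these counts and gene lengths. The submitters' processing notes name the build mm10. Aligner, annotation and strand setting were not given in the sources used here.

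Counts of all 54532 genes entered edgeR 4.0.16 (R 4.3.3) with filterByExpr, TMM scaling and robust quasi-likelihood fits on treatment alone, and only the members are printed. CPM values are TMM-scaled, and each adjusted p of a gene comes from this test. The biological coefficient of variation was 4.61%. Paralog ratios were compared by exact permutation. Coding sequences, coordinates and copies come from GENCODE M21, and promoters from RefSeq GRCm38.p6. The members, lists and tests were chosen with earlier results of these data known. Genes chosen by rule were the stalk genes, Rpsa, Rpl5, Rpl11, Rps6, Rpl22, Rps27, Rpl36a, Rpl39, Rpl7, Rpl3 and paralogs with a read. To these came the 5 largest called rises and falls in each subunit averaging 5 CPM or more, and of each list up to 3 called members. Their values are given by library, as mean and SD, as a total or as a log2 change alone. Rpl17, Rps2, Rpl34, Rps10, Rps18, Rpl23, Rps21 and Rpl23a, and other members given by a value alone, were added after their values were seen. A few genes are not reported here by name, though they count in the totals. The fit was tested on simulated data.

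Alternatives were RLE factors, library size alone, DESeq2 1.42.0, limma-voom and limma-trend (limma 3.58.1) on log2(FPKM + 1) and log2(FPKM + 0.1), other low-count filters, a replicate block, lowess trends on length and GC removed (span 0.3), sums with pseudogenes or copies, and leaving out each library.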

Additional observations from a re-analysis of the deposited data

How the results depend on the processing

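The calls on Rpl genes (38 higher) and Rps genes (27 higher) stayed within 1.5 times under every alternative run, and 57 of the 65 genes called higher were higher in all of them, or 63 in all fits that leave out 1 library. The labels state no pairing of the samples by replicate number. Correlations of same-numbered libraries were 0.03, 0.04 and -0.00, and those of other numbers ran from -0.06 to 0.03. With 3 libraries a group these values cannot tell whether the samples were paired. With the replicate block 39 Rpl and 27 Rps genes were higher, and Rps27 was not called (0.94, adjusted p = 0.0943).

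By library size alone 2 Rpl genes were lower, the Rpl and Rps medians were 0.27 and 0.28, 3 TOP regulators were higher, 1 pseudogene was lower, and Rps27l and Rpl7 turned to -0.094 and -0.094, Rpl7 with an adjusted p of 0.00962. With length and GC trends removed 2 Rpl and 2 Rps genes were lower, the medians were 0.23 and 0.31, 1 TOP regulator and 2 rescue genes were lower, 30 pseudogenes were higher and 2 lower, and Rpl7 and Larp4 turned to -0.0077 and 0.029. Without a filter 0 Rps genes, 2 rescue genes and 2 pseudogenes were lower, and the Rps median was 0.45. The stricter filter gave 1 lower pseudogene. On log2(FPKM + 1), log2(FPKM + 0.1) and log2(FPKM + 1) without a filter 0 Rps genes and 2 rescue genes were lower in each, and 2, 2 and 3 pseudogenes. Sums with named pseudogenes gave an Rps median of 0.45 and a rise in the Rps share of 0.446 percentage points (0.378 on own rows). Sums with copies, added after seeing the data, gave 0 lower Rps genes, 0.45 and 0.455 points, and a change of 0.0049 in the ratio of Rpl22l1 to Rpl22. Leaving out each library, lower Rps genes ranged from 0 to 1, lower pseudogenes from 0 to 1, lower rescue genes from 2 to 4 and the Rpl22l1 ratio from -0.059 to 0.048. The causes were not tested. Depth was no limit for most members, but rows such as Rps2 carry few of the reads of the member and its copies together.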

Other observations

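The table also holds 298 rows named as pseudogenes of ribosomal proteins. Of these 162 had a read, 28 had at least 1000 reads over the 6 libraries, and 81 passed the filter on low counts. In baicalin 47 of the 81 were higher (58.0%) and none was lower, with 33.6% and 34.1% over all tested genes. Their log2 median was 0.49, and the share of the reads on all such rows rose from 0.345 ± 0.0112% to 0.461 ± 0.00966% (SD, n = 3). DESeq2 called 40 higher and 0 lower, where it called 4217 higher and 4303 lower of all 13728 tested genes. Rps2-ps13, Rpl34-ps1 and Rpl3-ps1 held the most reads, at 108420, 67671 and 48421, and rose by 0.75, 0.42 and 0.42. The parents of the last pair are Rpl34 and Rpl3, and Rpl3 itself rose by 0.35. Rpsa-ps10 rose by 0.81, beside 0.78 for Rpsa. Whether such reads come from transcribed copies or from the parent message was not tested.

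Some rows with other names also share words with a member, and their reads are part of its sum with copies. Wdr89, which holds at least 50% of the 31-base words of Rplp2, rose by 0.68 beside 0.76 for Rplp2, and BC004004, which shares them with Rpl21, rose by 0.31. Gm10275, a transcribed pseudogene with all words of Rpl12, rose by 0.74, the value of Rpl12. Gm10443, with all words of Rps28, was not called, at -0.15 ± 0.11. Among annotated overlaps on opposite strands, Arpc5l had 19.8% as many reads as Rpl35, with which it shares 62 bases.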
